A study of Mus musculus with 16 samples.

Results

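Immediate early genes are switched on within minutes of a signal, without new protein synthesis, by transcription factors such as SRF and CREB that are already in the cell. The best known encode the AP-1 proteins Fos and Jun. Others encode zinc-finger factors, nuclear receptors, and the phosphatases and RNA-binding proteins that shut the signal down again. In dendritic cells they respond to pathogen sensing, to growth factor and adhesion signals, and to handling of the tissue, enzymatic digestion included.

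The genes described here are 10 immediate early genes that do not encode AP-1 subunits, out of 19938 genes on the array. They are the Krüppel-like factors Klf2, Klf4 and Klf6, the zinc-finger factor Egr1, the orphan nuclear receptor Nr4a1, the nuclear regulator Ier2, the phosphatase Dusp1, the mRNA-decay factor Zfp36, the small GTPase Rhob and the arrestin-domain protein Arrdc3. The members were chosen by earlier results on the same arrays, for standing higher in knockout than in heterozygous cells, or for known early induction. The knockout-minus-heterozygous values below therefore describe the choice and were not tested. The members were not chosen on the node contrast, which was tested. Each sample was taken at a single time, so the speed of induction that gives these genes their name was not measured.

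The study compared cDC1, the conventional dendritic cells that excel at cross-presenting antigen to CD8 T cells, from C57BL/6 mice heterozygous (Het) or knockout (KO) for Wdfy4, a gene needed for cross-presentation of cell-associated antigen. All mice carried a regressor tumour, a tumour line that an intact immune system rejects, placed in the back flank 6 days before harvest. From each genotype, cDC1 were sorted from the inguinal lymph node of the flank that drained the tumour and from that of the flank that did not, after digestion of the nodes with collagenase B and DNase I. Each of the 4 groups (Het draining, KO draining, Het non-draining and KO non-draining) has 4 arrays, numbered 1 to 4, for 16 in all. The Het controls also lack 1 working copy of Wdfy4, and no mice without a tumour or with both copies intact were analysed here. Age, sex and whether each array is a separate mouse or a pool are not given in the labels, so the tests below measure the spread between these arrays, which may in part be technical. RNA was hybridised to Affymetrix mouse gene arrays, and levels are given as log2(intensity + 1), so that a difference of 1 is a doubling; levels of different genes come from different probes and are not compared with each other. The number of arrays limits the precision.

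All 12 listed cDC1 markers were measured. The chemokine receptor Xcr1 had log2 levels between 10.28 and 11.29 over the 16 arrays and the dead-cell receptor Clec9a between 10.01 and 10.80. RNA of other node cells also varied between arrays. The mean log2 level of 11 T cell markers ran from 6.46 to 7.23 in Het draining, 6.60 to 7.51 in Het non-draining, 6.69 to 7.53 in KO draining and 6.21 to 7.37 in KO non-draining arrays. For 9 B cell markers these ranges were 5.53 to 6.44, 5.49 to 6.37, 5.83 to 6.14 and 5.88 to 6.55 in the same order. In sorted populations, fewer cells of a type and less RNA per cell cannot be told apart.

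Promoter sequence was read for the members to show which of the known inputs of this gene class can be found as letters near their starts. RefSeq's promoter table (GRCm38.p6) held 8 of the 10 members. Egr1 and Ier2 had no entry, so their promoters were not read. Below are the 250 bases upstream of the start of 4 of them: Dusp1, which carries the full cAMP response element, Nr4a1, with 4 copies of that element's core, Klf2, with a MEF2 site, and Zfp36, with a serum response site. The capitals mark matches, on either strand, to the CREB site TGACGTCA, its core TGACG, the EGR site GCGNGGGCG, the MEF2 site and the CArG box that SRF binds.
Dusp1, chr17:26508473-26508722, minus strand: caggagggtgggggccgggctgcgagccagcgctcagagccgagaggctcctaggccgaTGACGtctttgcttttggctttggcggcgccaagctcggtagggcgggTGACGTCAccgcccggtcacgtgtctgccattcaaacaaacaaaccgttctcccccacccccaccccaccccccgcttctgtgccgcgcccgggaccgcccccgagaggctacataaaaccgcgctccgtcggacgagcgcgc
Nr4a1, chr15:101266596-101266845, plus strand: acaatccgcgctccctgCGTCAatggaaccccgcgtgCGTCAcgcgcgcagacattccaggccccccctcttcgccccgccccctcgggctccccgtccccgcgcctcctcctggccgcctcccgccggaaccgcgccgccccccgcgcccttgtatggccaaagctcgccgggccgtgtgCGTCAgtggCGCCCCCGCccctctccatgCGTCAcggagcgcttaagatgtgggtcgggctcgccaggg
Klf2, chr8:72318812-72319061, plus strand: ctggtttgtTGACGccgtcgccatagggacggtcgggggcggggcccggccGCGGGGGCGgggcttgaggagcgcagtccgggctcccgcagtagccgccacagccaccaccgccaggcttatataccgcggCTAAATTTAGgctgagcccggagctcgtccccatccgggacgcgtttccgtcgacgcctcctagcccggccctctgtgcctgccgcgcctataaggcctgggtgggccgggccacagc
Zfp36, chr7:28379229-28379478, minus strand: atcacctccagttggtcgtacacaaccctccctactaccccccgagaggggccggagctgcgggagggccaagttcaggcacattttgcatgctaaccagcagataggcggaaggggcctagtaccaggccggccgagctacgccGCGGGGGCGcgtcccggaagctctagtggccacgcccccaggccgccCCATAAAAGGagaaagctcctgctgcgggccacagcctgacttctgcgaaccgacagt

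In Dusp1 the whole CREB site spans positions -143 to -136, counted from the base before the start as -1, and a further core lies at -191 to -187. Nr4a1 has its cores at -233 to -229, -213 to -209, -69 to -65 and -40 to -36, and an EGR site at -60 to -52. In Klf2 a core begins at -241, an EGR site at -199 and the MEF2 site at -118. Zfp36 has an EGR site at -105 to -97 and the CArG box at -58 to -49. Over the 8 members, 1 held the whole CREB site, against 1.77% of the 27025 genes in the table. The core was found in 5 (Arrdc3, Dusp1, Klf2, Klf4 and Nr4a1), against 19.8% of genes, and the EGR site in 4 (Klf2, Klf4, Nr4a1 and Zfp36), against 5.33%. The CArG box was found in 1 (Zfp36), against 1.62% of genes, and the MEF2 site in 1 (Klf2), against 0.592%. The GC box GGGCGG was present in 8 of 8, against 35.4% of genes, and can overlap the EGR site. Median GC content was 71.0% over the starts of these 8 members and 52.4% over all promoters in the table. None of the 8 held the AP-1 site TGANTCA, the TATA box TATAAA, the FOXO site GTAAACA or an NF-kappaB site in this window. This says only that these letters are not there. A match is a description of letters and not a site shown to be used in these cells.

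Mean levels were higher in KO than in Het cells for nearly all members in both nodes, though single arrays of the genotypes overlapped for most, with the widest distance for Rhob and Arrdc3 (0.60 and 0.45 averaged over both nodes) and the least for Dusp1 and Zfp36 (0.04 and 0.10). In the draining node the KO mean was higher for 9 of 10 members, against 49.1% of all genes; the exception was Dusp1, whose difference turned from -0.04 to 0.08 without KO draining array 2. The non-draining node had the higher KO mean for 10 of 10, against 51.9% of all genes. Draining-node differences of the members had a median of 0.34 (0.20 without Het draining array 4), where 90% of all genes lay between -0.24 and 0.21. The non-draining median was 0.33, where 90% of all genes lay between -0.20 and 0.22. These figures restate how the members were chosen. Within groups Rhob, Klf4, Egr1, Ier2 and Nr4a1 varied more than most genes, and Klf6, Dusp1 and Zfp36 less. The range over all genes is therefore not matched to the spread of each member. Mean levels of markers of the sorted cells also leaned by genotype, mainly in the non-draining node, while the array ranges of both marker lists below overlapped between genotypes in both nodes. In the non-draining node 11 of 12 cDC1 markers had the higher mean in KO (median difference 0.21) and 4 of 4 markers of migratory dendritic cells the lower one (median -0.15). The draining-node counts were 5 of 12 higher for cDC1 (median -0.01) and 3 of 4 lower for migratory cells (median -0.10). The mean level of the cDC1 list ran from 9.35 to 9.60 on Het draining, 9.15 to 9.56 on Het non-draining, 9.34 to 9.62 on KO draining and 9.38 to 9.73 on KO non-draining arrays. For migratory dendritic cells it ran from 11.21 to 11.78, 11.19 to 11.72, 10.69 to 11.79 and 11.16 to 11.64 in the same order. Their part in the members' values was not tested. Across all 19938 genes, limma with Benjamini-Hochberg adjustment called 0 genes between KO and Het in either node, with smallest adjusted p of 0.265 and 0.333, and 675 and 494 genes at an unadjusted p under 0.05.

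**Figure D1:**
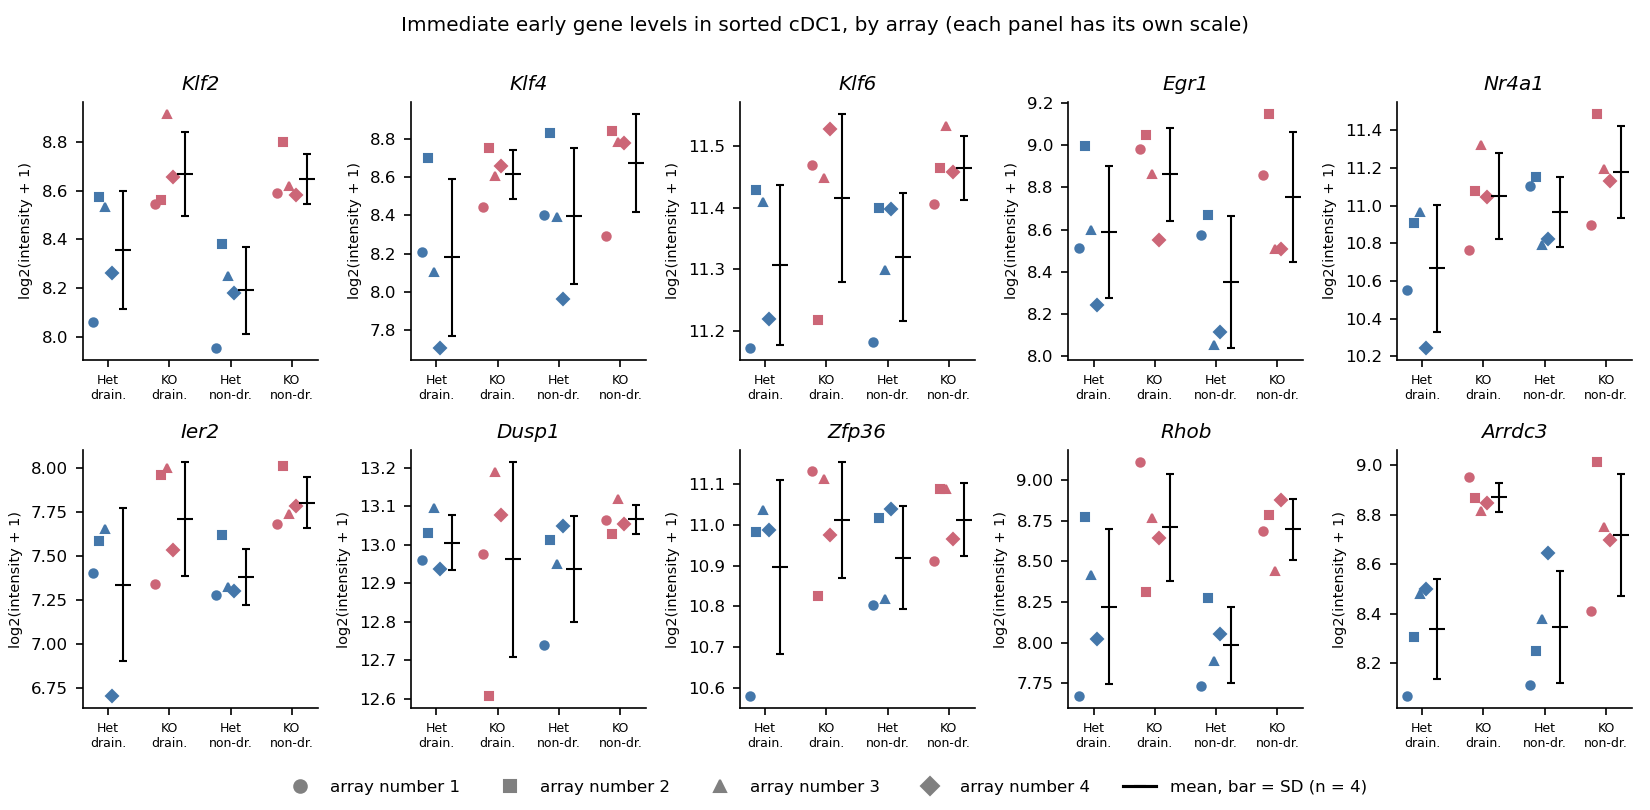
Levels of the 10 members as log2(intensity + 1) on each of the 16 arrays, 1 panel per gene with its own scale, with group mean and SD (n = 4). Arrdc3 in the draining node and Klf2, Klf6, Ier2 and Rhob in the non-draining node show every KO array above every Het array.

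Among the transcription factors, Klf2 (probe set 10572800) controls lymphocyte trafficking and endothelial quiescence. Its draining-node values were 8.06, 8.57, 8.53 and 8.26 on Het arrays 1 to 4 and 8.54, 8.56, 8.91 and 8.66 on KO arrays. Its non-draining values were 7.96, 8.38, 8.25 and 8.18 on Het and 8.59, 8.80, 8.62 and 8.58 on KO arrays. The groups overlapped in the draining node, where Het array 2 stood just above the 2 lowest KO arrays, and were apart in the non-draining node. KO minus Het was 0.31 (SE 0.13) in the draining and 0.46 (SE 0.13) in the non-draining node, or 1.24-fold and 1.37-fold. Lymphocytes also express Klf2. In the draining node 11 of 11 T cell markers had the higher mean in KO (median difference 0.28), and in the non-draining node 0 of 11 did (median -0.37). For B cell markers 8 of 9 were higher in KO in the draining node (median 0.12) and 9 of 9 in the non-draining node (median 0.51). The part of T cell and B cell RNA in the Klf2 values was not tested.

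Klf4 (probe set 10513008), a factor of the same family that acts in monocyte and dendritic cell differentiation, had the widest spread of the Krüppel-like members, with SDs within groups of 0.13 to 0.41 (n = 4). In the draining node it measured 8.21, 8.70, 8.10 and 7.71 on Het and 8.45, 8.75, 8.61 and 8.66 on KO arrays. Klf4 in non-draining cells measured 8.40, 8.83, 8.39 and 7.96 on Het and 8.29, 8.84, 8.79 and 8.78 on KO arrays. Het array 2 was level with the KO arrays in both nodes and Het array 4 was the lowest in both. The difference, KO minus Het, was 0.44 (SE 0.20) in the draining node and 0.28 (SE 0.20) in the non-draining node. Without Het array 4 of the same node these were 0.28 and 0.13, and without Het array 2 of the same node 0.61 and 0.42.

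Klf6 (probe set 10403352), which is induced by injury and inflammatory signals in myeloid cells, varied less, with SDs of 0.05 to 0.14. It measured 11.17, 11.43, 11.41 and 11.22 on Het and 11.47, 11.22, 11.45 and 11.53 on KO arrays of the draining node. Non-draining Klf6 values were 11.18, 11.40, 11.30 and 11.40 on Het and 11.41, 11.46, 11.53 and 11.46 on KO arrays. The lowest KO array and the highest Het array of the non-draining node were 11.41 and 11.40, so the groups there were apart by less than the SD within either. For Klf6 the KO-minus-Het difference was 0.11 (SE 0.09) and 0.14 (SE 0.09), draining node first; with each array left out in turn the draining value ran from 0.06 (without Het array 1) to 0.17 (without KO array 2).

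The SRF target Egr1 (probe set 10454782), a factor that relays growth factor signals, overlapped between genotypes in both nodes. It measured 8.51, 9.0, 8.60 and 8.24 on Het and 8.98, 9.05, 8.86 and 8.55 on KO arrays of the draining node. Away from the tumour it measured 8.57, 8.67, 8.05 and 8.12 on Het and 8.86, 9.15, 8.51 and 8.51 on KO arrays. In all 4 groups the highest Egr1 value was on array 2. Egr1 had a KO-minus-Het difference of 0.27 (SE 0.19) and 0.40 (SE 0.19), draining node first, and the draining value was 0.16 without Het array 4 of that node.

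Nr4a1 (probe set 10427035), an orphan nuclear receptor known as a marker of antigen receptor signalling in lymphocytes and a brake on inflammation in myeloid cells, also overlapped. Draining-node values were 10.55, 10.91, 10.97 and 10.25 on Het and 10.76, 11.08, 11.32 and 11.05 on KO arrays. Nr4a1 in non-draining cells measured 11.11, 11.15, 10.79 and 10.83 on Het and 10.90, 11.49, 11.19 and 11.13 on KO arrays. The lowest values of the 16 were on Het draining arrays 4 and 1. The KO-minus-Het difference of Nr4a1 was 0.38 (SE 0.17) in the draining node and 0.21 (SE 0.17) in the non-draining node. The first was 0.24 without Het draining array 4 and the second 0.10 without KO non-draining array 2.

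Ier2 (probe set 10580183), a nuclear protein that regulates transcription, ranked the draining-node arrays of each genotype in the same order as Nr4a1 did. It measured 7.41, 7.59, 7.65 and 6.71 on Het and 7.34, 7.96, 8.0 and 7.53 on KO arrays of the draining node. Ier2 in non-draining cells measured 7.28, 7.62, 7.32 and 7.30 on Het and 7.68, 8.01, 7.74 and 7.78 on KO arrays, with no overlap. For Ier2, KO minus Het was 0.37 (SE 0.19) and 0.42 (SE 0.19), draining node first, and the draining value was 0.16 without Het draining array 4.

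The feedback inhibitors Dusp1 and Zfp36 had the smallest differences by genotype averaged over both nodes, at 0.04 (SE 0.08) and 0.10 (SE 0.08). Klf6 was close to them, at 0.13 (SE 0.06), so no trait of a class of genes is read from this order. Dusp1 (probe set 10449284) encodes the phosphatase that inactivates p38 and JNK. It measured 12.96, 13.03, 13.10 and 12.94 on Het and 12.98, 12.61, 13.19 and 13.08 on KO arrays of the draining node. Non-draining Dusp1 values were 12.74, 13.01, 12.95 and 13.05 on Het and 13.06, 13.03, 13.12 and 13.05 on KO arrays. KO draining array 2 and Het non-draining array 1 stood low and the other 14 lay between 12.94 and 13.19. Dusp1 had a KO-minus-Het difference of -0.04 (SE 0.11) in the draining and 0.13 (SE 0.11) in the non-draining node. With each array left out in turn the first ran from -0.12 (without KO array 3) to 0.08 (without KO array 2), and the second was 0.06 without Het non-draining array 1.

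Zfp36 (probe set 10561453) encodes tristetraprolin, which binds AU-rich elements and speeds the decay of cytokine mRNAs. It measured 10.58, 10.98, 11.04 and 10.99 on Het and 11.13, 10.83, 11.11 and 10.97 on KO arrays of the draining node. For the other node the values were 10.80, 11.02, 10.82 and 11.04 on Het and 10.91, 11.09, 11.09 and 10.96 on KO arrays. The genotypes overlapped in both nodes. The KO-minus-Het difference of Zfp36 was 0.11 (SE 0.11) and 0.09 (SE 0.11), draining node first. Without Het array 1 of the same node these were 0.0095 and 0.05.

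The membrane and trafficking members Rhob and Arrdc3 had the largest differences averaged over both nodes, at 0.60 (SE 0.15) and 0.45 (SE 0.10). Ier2 was close to Arrdc3, at 0.40 (SE 0.13). Rhob (probe set 10399360) encodes an endosomal small GTPase that acts in receptor sorting. It measured 7.67, 8.77, 8.42 and 8.02 on Het and 9.11, 8.31, 8.77 and 8.64 on KO arrays of the draining node, where the genotypes overlapped. Rhob in non-draining cells measured 7.73, 8.27, 7.88 and 8.05 on Het and 8.69, 8.78, 8.44 and 8.88 on KO arrays, with no overlap. KO minus Het was 0.49 (SE 0.21) in the draining node and 0.71 (SE 0.21) in the non-draining node, or 1.40-fold and 1.64-fold. The draining value was 0.30 without Het draining array 1. Its group means were 8.22 ± 0.48 in Het draining, 8.71 ± 0.33 in KO draining, 7.99 ± 0.23 in Het non-draining and 8.70 ± 0.19 in KO non-draining cells (SD, n = 4). Rhob is also expressed by endothelial cells, for which the mean level of 8 markers ran from 5.03 to 5.42 in Het draining, 5.0 to 5.13 in Het non-draining, 5.03 to 5.44 in KO draining and 4.97 to 5.44 in KO non-draining arrays; their part in the Rhob difference was not tested.

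Arrdc3 (probe set 10406407) encodes an alpha-arrestin that directs surface receptors to degradation. It measured 8.07, 8.31, 8.48 and 8.50 on Het and 8.95, 8.87, 8.82 and 8.85 on KO arrays of the draining node. Its non-draining values were 8.11, 8.25, 8.38 and 8.65 on Het and 8.41, 9.01, 8.75 and 8.70 on KO arrays. The genotypes were apart in the draining node, where the KO arrays spanned 8.82 to 8.95, and overlapped in the non-draining node through Het array 4 and KO array 1. For Arrdc3, KO minus Het was 0.53 (SE 0.13) in the draining and 0.37 (SE 0.13) in the non-draining node, or 1.45-fold and 1.29-fold. Group means were 8.34 ± 0.20 in Het draining, 8.87 ± 0.06 in KO draining, 8.35 ± 0.23 in Het non-draining and 8.72 ± 0.25 in KO non-draining cells (SD, n = 4).

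In the draining node every KO array stood above every Het array for 1 of 10 members (Arrdc3), and 0.838% of all genes had that order. For the non-draining node 4 of 10 did (Klf2, Klf6, Ier2 and Rhob), and 1.20% of all genes. Leaving out an array can only keep or raise such a count. The draining count went from 1 to 3 without Het draining array 2 and to 2 without KO draining array 1 or 2. The non-draining count was 6 without Het non-draining array 4, and 3 when the arrays were quantile normalized again. Since the rule used this contrast, nothing is read from these counts.

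**Figure D2:**
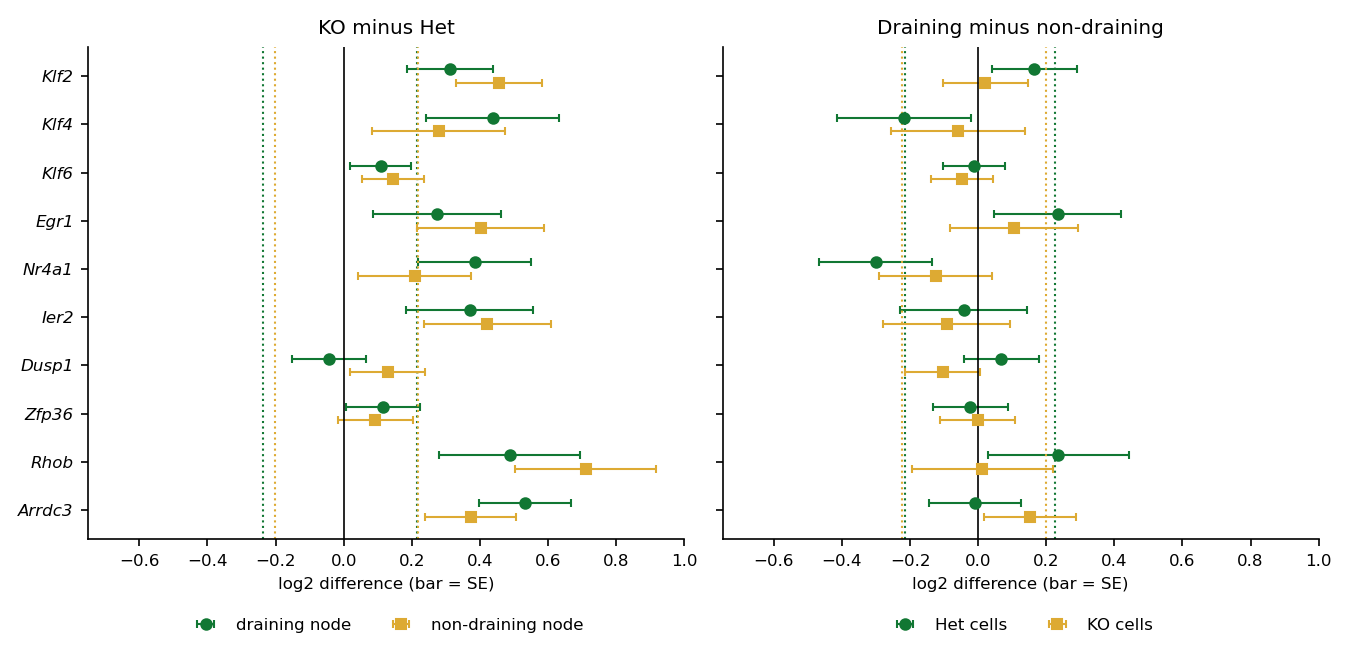
Log2 differences of the 10 members with their SE from the limma fit: KO minus Het by node on the left, draining minus non-draining by genotype on the right. Dotted lines mark the range holding 90% of all genes in the comparison of the same colour. Most KO-minus-Het points lie beyond it, while of the node differences Nr4a1, Klf4, Egr1 and Rhob in Het cells pass it. These 4 genes also varied more within groups than most genes.

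Levels in the tumour-draining node were next tested against those of the other node within each genotype, and 0 of 10 members passed in either. In Het cells the differences, draining minus non-draining, ran from -0.30 (Nr4a1, SE 0.17) to 0.24 (Rhob, SE 0.21), with a median of -0.01, and in KO cells from -0.12 (Nr4a1, SE 0.17) to 0.15 (Arrdc3, SE 0.13), with a median of -0.02. The draining mean was higher for 4 of 10 members in Het cells, against 52.8% of all genes, and for 4 of 10 in KO cells, against 50.7%. The limma test with Benjamini-Hochberg adjustment called 0 of 10 members and 0% of all genes in both. At an unadjusted p under 0.05 it called 0 of 10 members, against 3.29% of all genes in Het and 2.11% in KO cells. The member nearest to that threshold in these tests was Nr4a1 in Het cells, whose 95% interval was -0.65 to 0.05.

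The intervals show which node effects these arrays could still hold. Averaged over both genotypes, draining minus non-draining for Klf6 was -0.03 (95% interval -0.17 to 0.11), for Dusp1 -0.02 (-0.18 to 0.15) and for Zfp36 -0.01 (-0.18 to 0.15). The limits for these 3 stay below 0.2 in size. For Klf2 the value was 0.09 (-0.09 to 0.28), and for Arrdc3 it was 0.07 (-0.13 to 0.27). Wider intervals were found for Egr1, at 0.17 (-0.11 to 0.45), Rhob, at 0.12 (-0.19 to 0.43), and Ier2, at -0.07 (-0.35 to 0.21). On the negative side, Klf4 had -0.14 (-0.43 to 0.16) and Nr4a1 -0.21 (-0.46 to 0.04). At an unadjusted p under 0.05 limma called 0 of 10 members in this average, against 3.06% of all genes, and after Benjamini-Hochberg adjustment 0 of 10 and 0%.

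The node difference in KO cells minus that in Het cells tests whether the genotypes responded differently. It ran from -0.22 for Rhob (95% interval -0.84 to 0.40) to 0.18 for Nr4a1, with a median of -0.04, and lay between these for the other members. Limma with Benjamini-Hochberg adjustment called 0 of 10 members and 0% of all genes, and at an unadjusted p under 0.05 it called 0 of 10 members and 2.32% of all genes. The earlier choice on KO against Het may have weighed 1 node more than the other, which would enter this difference.

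Part of the spread of Egr1 ran with the array numbers. Division of each group into arrays 1 and 2 and arrays 3 and 4 was made in earlier work on these data, and the labels do not call the numbers a batch. Over all groups, arrays 3 and 4 minus arrays 1 and 2 was -0.42 for Egr1, where 90% of all genes lay between -0.25 and 0.40. Klf4 differed by -0.19, Arrdc3 by 0.14 and Dusp1 by 0.13. In the draining node the median KO-minus-Het difference of the members was 0.19 on arrays 1 and 2 and 0.37 on arrays 3 and 4, and in the non-draining node 0.28 and 0.37. Rhob kept nearly the same difference on both sides, 0.49 and 0.48 in the draining node and 0.73 and 0.69 in the non-draining node, and so did Egr1, with 0.26 and 0.29 and with 0.38 and 0.42. Klf4 did not: its difference was 0.14 and 0.73 in the draining node and -0.05 and 0.61 in the non-draining node. Nr4a1 was likewise larger on arrays 3 and 4, at 0.58 against 0.19 and 0.35 against 0.06. For Arrdc3 it was larger on arrays 1 and 2, at 0.72 against 0.34 and 0.53 against 0.21. Each of these values compares 2 arrays with 2.

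**Figure D3:**
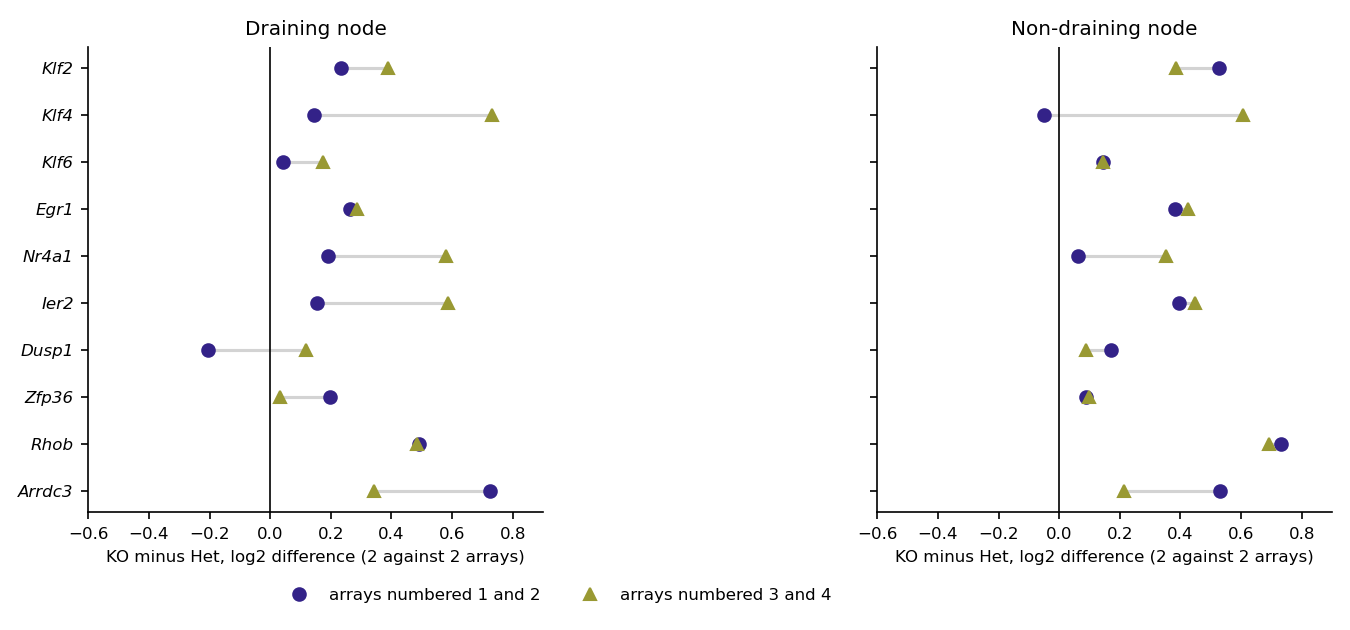
KO-minus-Het log2 difference of each member on arrays 1 and 2 (circles) and on arrays 3 and 4 (triangles), by node; each point compares 2 KO with 2 Het arrays. Rhob and Egr1 have both points close together, and Klf4 has them far apart, at -0.05 and 0.61 in the non-draining node.

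Within groups, most pairs of members rose and fell together. After the 4 group means were removed, 37 of the 45 pairs of members had a positive Pearson r over the 16 arrays. The median r of the 45 pairs was 0.37. It was 0.55 with the means of arrays 1 and 2 and of the other 2 removed within each group. The same share and median over pairs of other genes were not computed, so neither is read as a trait of the members. Permuting values within groups and adjusting over the 45 pairs by Benjamini-Hochberg, 2 pairs passed in both r and Spearman's rho. Nr4a1 and Ier2 had r = 0.85 (permutation p = 0.00015, adjusted 0.00675) and rho = 0.79 (permutation p = 0.00055, adjusted 0.0234), and r = 0.79 without the 2 arrays farthest from the median. Klf6 and Dusp1 had r = 0.81 (permutation p = 0.00289, adjusted 0.0433) and rho = 0.84 (permutation p = 0.00104, adjusted 0.0234), and r = 0.62 without those 2 arrays. Klf6 and Zfp36 passed in r only, at 0.75 (permutation p = 0.00283, adjusted 0.0433), with an adjusted permutation p of 0.151 for rho = 0.68.

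The first 2 relations were also read on arrays 1 and 2 alone and on the others, with the mean of the 2 arrays removed in each group. That of Nr4a1 to Ier2 had an r of 0.77 and 0.99, and that of Klf6 to Dusp1 0.85 and 0.66, in that order. Each of these r rests on 1 difference between 2 arrays per group, 4 in all, so it is no separate test of the relation. Klf2 tracked the mean of the other 9 members most closely, with r = 0.86. For the rest r with the other 9 was 0.70 for Klf6 and Rhob, 0.66 for Nr4a1, 0.63 for Zfp36, 0.49 for Ier2, 0.43 for Dusp1, 0.42 for Klf4, 0.32 for Egr1 and 0.25 for Arrdc3. The points share hybridisation and normalization, and the arrays of the 2 nodes of 1 genotype may share mice.

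**Figure D4:**
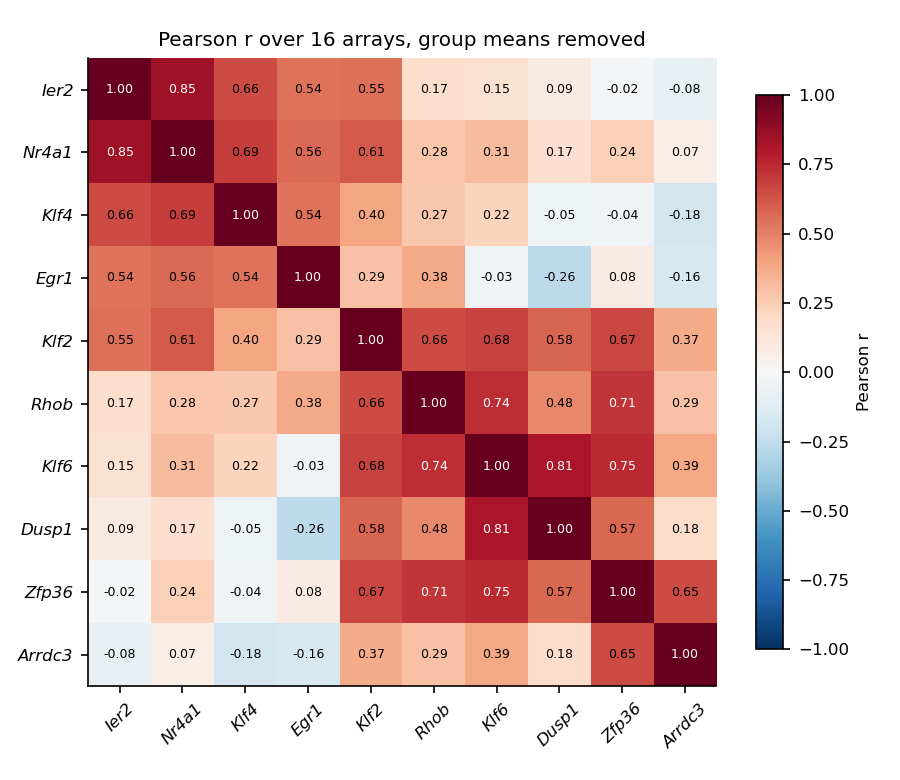
Pearson r between members over the 16 arrays after removal of the 4 group means; rows and columns are the 10 members, and colour runs from -1 (blue) to 1 (red). Nr4a1 and Ier2 (0.85), with Klf4 next to them, and Klf6 and Dusp1 (0.81), with Zfp36 and Rhob, form the warmest areas, and Egr1 with Dusp1 (-0.26) is the coolest cell.

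The genes most like the members across arrays were sought among 8436 genes with a mean log2 level of at least 6. Over the 16 arrays the 8 with the highest Pearson r with the mean standardised level of the members were Atf3 (0.87), Fos (0.87), Fgd2 (0.86), Dbnl (0.86), Btg2 (0.85), Rgl2 (0.84), Ppm1m (0.82) and Nop56 (0.81). Atf3, Fos and Btg2 are immediate early genes themselves, and Atf3 and Fos encode AP-1 family proteins. Of 38 other immediate early genes in this comparison, 10 reached an r of at least 0.7, against 74 of all 8436 genes, and their median r was 0.50 against 0.09. With group means removed the 8 nearest were Nadk (0.89), G6pc3 (0.88), Aldh2 (0.87), Dbnl (0.87), Nob1 (0.87), Fgd2 (0.86), Eef2 (0.86) and Btg2 (0.86). Then 5 of 38 other immediate early genes and 128 of all genes reached 0.7. The first list carries the genotype difference by which the members were picked, and the second does not.

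Other immediate early genes that were measured but are not members, 39 in all, leaned the same way by genotype. This list includes AP-1 genes and was drawn up with earlier results of these data known, so it is no independent check on the members. The mean was higher in KO for 36 of 39 in the draining node (median difference 0.19), against 49.1% of all genes. In the non-draining node it was higher for 34 of 39 (median 0.18), against 51.9%. The mean level of the list ran from 8.69 to 8.94 on Het draining arrays and from 8.90 to 9.14 on KO draining arrays. Non-draining arrays ran from 8.83 to 8.97 on Het and from 8.96 to 9.21 on KO arrays. By node, 13 of 39 were higher in the draining node in Het cells (median -0.08), against 52.8% of all genes. In KO cells 11 of 39 were (median -0.04), against 50.7%. In both genotypes 0 passed the test in either direction. The genes of smallest p in Het cells were Fosl2, an AP-1 subunit, at -0.75 (SE 0.19), the kinase gene Plk3 at -0.64 (SE 0.20) and the AP-1 subunit Jun at 0.40 (SE 0.14). For each of them the limma adjusted p rounded to 1.00. The difference of node differences was 0.70 (SE 0.27) for Fosl2, also without passing.

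Heat shock genes, which like immediate early genes are known to be induced when tissue is digested, also had higher means in KO. Of the 9 measured, 9 were higher in KO in the draining node (median 0.16) and 9 in the non-draining node (median 0.32), against 49.1% and 51.9% of all genes. The chaperone gene Hsph1, named after its values were seen, differed by 0.56 (SE 0.17) and 1.00 (SE 0.17), and the inducible chaperone gene Hspa1a by 0.79 (SE 0.35) and 1.16 (SE 0.35). The mean level of the list was 8.92 to 9.33 on Het draining, 8.81 to 9.08 on Het non-draining, 9.12 to 9.54 on KO draining and 9.15 to 9.71 on KO non-draining arrays. On this list mean the genotypes overlapped in the draining node and were narrowly apart in the non-draining node, at 9.08 against 9.15. How often other lists are apart in this way was not computed. The list was drawn up with earlier results of these data known, so nothing is read from the gap. The part of handling in the members' values was not tested. By node, 0 of 9 heat shock genes passed.

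Known or proposed targets of single members were described from lists. All 9 measured cytokine and related genes with AU-rich mRNAs, which the protein made from Zfp36 is known to destabilise, had the higher mean in KO in both nodes, with medians of 0.22 and 0.28. Of all genes 49.1% and 51.9% did, and these lists too were drawn up with earlier results of these data known. Named after their values were seen, the prostaglandin synthase gene Ptgs2 differed by 0.82 (SE 0.22) in the draining and 0.20 (SE 0.22) in the non-draining node, and the chemokine gene Ccl3 by 0.69 (SE 0.27) and 0.37 (SE 0.27). Of 5 measured genes known or proposed as KLF2 targets, 3 were higher in KO in the draining node (median 0.06) and 2 in the other (median -0.00051). By node, S1pr1, the egress receptor gene that Klf2 drives in T cells, had a difference of node differences of 0.97 (SE 0.46). It did not pass. T cell markers leaned the same way, with a positive value for 11 of 11 and a median of 0.69. The median over all genes was -0.0092, and the part of T cell RNA was not tested.

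Among relatives of the members the counts by genotype were closer to even. Of the 10 other Krüppel-like genes, 7 were higher in KO in the draining node (median 0.05) and 4 in the non-draining node (median -0.03). Of the 4 other arrestin-domain genes 3 were higher in the draining node (median 0.05) and 2 in the other (median 0.10). Of 17 measured genes of the SRF and MAP kinase side of the pathway, 11 were higher in KO in the draining node (median 0.03) and 8 in the other (median -0.03). In the node average the smallest p among these 17 belonged to the phosphatase gene Dusp4, at -0.41 (SE 0.16), and to the kinase gene Mapkapk2, at -0.26 (SE 0.10). No gene of these lists passed limma with Benjamini-Hochberg adjustment in the node contrasts.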

How the data were processed

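Per the labels, RNA of sorted cDC1 was labelled with biotin and hybridised to Affymetrix arrays, 16 in all. The deposited table holds 1 normalized linear intensity per probe set and array (3.33 to 16300, array medians 38.6 to 40.8), and the submitters' processing notes name RMA. No source used here names its software, version or genome build. RMA pools probes and equalises array distributions, so a shift shared by all genes would not show.

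By the platform annotation, 21789 of 35556 probe sets had exactly 1 gene symbol, 1621 had several and 12146 had none. Each of 19938 genes was read from its brightest probe set (999 had several; each member had 1). Deposited intensity was turned into log2(value + 1) and fitted with limma 3.58.1 in R 4.3.3 over 4 groups (12 residual degrees of freedom), with two-sided tests and Benjamini-Hochberg adjustment over all genes at 0.05. Groups came from the labels. The script was tested on simulated data.

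The members and lists were chosen with earlier results of these data known. The text names the 10 members, from each list up to 3 genes of smallest p in a node contrast, and the 8 genes most like the members over arrays; exceptions are stated. The labels' numbers were checked for pairing over all genes. Deviations of same-numbered arrays of the 2 nodes correlated at 0.199 to 0.314 in Het cells (4 of 4 over 0.1) and at -0.0142 to 0.481 in KO cells (3 of 4 over 0.1). Arrays of the other number within 1 and 2 or within 3 and 4 correlated at 0.0708 to 0.384 (7 of 8 over 0.1), and 8 of 16 arrays correlated best with their own number, so a pairing by number and a shared set of 1 and 2 or 3 and 4 cannot be told apart. No 2 arrays were duplicates (highest correlation 0.9957). Alternatives changed the log scale, dim-gene filter, probe set rule, normalization, test, arrays fitted and replicate block, and left out each array.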

Additional observations from a re-analysis of the deposited data

Results flagged for a closer look

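In each of 40 groups of 4 arrays (10 members by 4 groups) the highest and lowest array was compared with its neighbour, and an array was singled out when that gap took up more of the group's range than Dixon's test allows at the 95% level. Chance alone singles out about 1 in 20 groups. The 4 found were on 4 genes and 4 arrays, and no value was left out for them. Klf2 was high on KO non-draining array 2, at 8.80, with the nearest array at 8.62. Ier2 was high on Het non-draining array 2, at 7.62, with the nearest at 7.32. Klf4 was low on KO non-draining array 1, at 8.29, with the nearest at 8.78. Zfp36 was low on Het draining array 1, at 10.58, with the nearest at 10.98.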

How the results depend on the processing

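Under every alternative run the limma count of genes called stayed at 0 in each node contrast and in the difference of node differences. The latter is the node difference in KO cells minus that in Het cells. The smallest limma adjusted p was 0.149, in Het cells. The median KO-minus-Het difference of the members stayed at 0.20 to 0.43 in the draining and 0.25 to 0.39 in the other node. The replicate block, fixed or random, changed no call. With the fixed block, pairing arrays by number, the median node difference was again -0.01 in Het and -0.02 in KO cells. Each number has 1 array in every group, so this block could change the estimated spread but not the differences. The values that changed sign lay between -0.13 and 0.02. With arrays quantile normalized again, draining minus non-draining became 0.034 for Klf6 in Het cells, 0.027 for Klf6 and 0.074 for Zfp36 in KO cells, and 0.031 for Klf6, 0.048 for Dusp1 and 0.036 for Zfp36 in the average of both. With array quality weights it became 0.0083 for Klf6 and 0.046 for Zfp36 in Het cells, and 0.027 for Zfp36 in KO cells. In the average it became 0.0012 for Klf6, 0.031 for Dusp1 and 0.037 for Zfp36. The difference of node differences became -0.018 for Zfp36. The cause was not tested. With each array left out in turn, node differences that changed sign ran in Het cells from -0.058 to 0.032 for Klf6, -0.15 to 0.17 for Ier2, -0.070 to 0.083 for Zfp36 and -0.087 to 0.092 for Arrdc3. In KO cells they ran from -0.061 to 0.071 for Klf2, -0.086 to 0.017 for Klf6, -0.19 to 0.029 for Ier2, -0.18 to 0.015 for Dusp1, -0.042 to 0.061 for Zfp36 and -0.12 to 0.14 for Rhob. In the average they ran from -0.053 to 0.0024 for Klf6, -0.12 to 0.038 for Ier2, -0.056 to 0.041 for Dusp1 and -0.035 to 0.041 for Zfp36. The difference of node differences ran from -0.081 to 0.029 for Klf6, -0.24 to 0.0075 for Egr1, -0.26 to 0.072 for Ier2 and -0.084 to 0.083 for Zfp36. Members with every KO array above every Het array numbered 1 to 3 in the draining node and 4 to 6 in the other with each array left out, which can only keep or raise the count. In the non-draining node they numbered 3 with arrays quantile normalized again. Fitting only the arrays compared gives no other value for the average and the difference of node differences, which use all 16. With 4 arrays per group precision is limited, and dim probe sets carry no detection call in the deposited table.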
